A study of Homo sapiens with 10 samples.

Results

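The Frizzled genes encode the cell-surface receptors for WNT proteins, and their transcripts were examined here in a human embryonic stem cell line. The family comprised FZD1 to FZD10, taken as the rows of the gene count table whose Ensembl identifiers carry those symbols. All 10 had a row among 55841 genes, and all 10 passed the filter on low counts that left 23552 genes for testing. Of these, 2 receptors, FZD5 and FZD8, fell in the sorted HHH cells, being 1.99 and 2.01 times as abundant in the general population, and 8 did not pass the test. Over all tested genes 3.89% were lower and 1.94% higher in HHH cells at the same adjusted p under 0.05.

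The cells were the line that the labels call HES9, grown without feeder cells in mTESR1 medium on matrigel. The general population was unsorted, and HHH was the fraction sorted by flow cytometry for the highest levels of the surface antigens GCTM-2, CD9 and EPCAM. Each population had 5 libraries, 2 in batch 1 and 3 in batch 2, and the comparison addresses how the sorted fraction differs from the culture it was taken from. The study's text names the line of its transcriptome work as WA09, and its design text mentions a protein kinase C inhibitor that no label of these libraries carries, and neither point was resolved here. A single line was used, the general population also contains HHH cells, and sorting as a handling step cannot be told apart from membership of the fraction. The labels do not say whether libraries with different replicate numbers came from separate cultures, so that p-values measure the spread between these libraries, which may be technical.

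Frizzled proteins bind WNT ligands through a cysteine-rich extracellular domain and span the membrane several times. Together with the co-receptors LRP5 and LRP6 they pass the signal to Dishevelled and stabilise beta-catenin, and with other partners they act in planar cell polarity and calcium signalling. In pluripotent stem cells beta-catenin signalling is known for promoting primitive streak-type differentiation, and FZD7 is known as an abundant receptor of these cells. By sequence the family falls into 4 subgroups, namely FZD1 with FZD2 and FZD7, FZD5 with FZD8, FZD3 with FZD6, and FZD4 with FZD9 and FZD10, and the members are described by subgroup, starting with FZD5 and FZD8.

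Libraries held 47242595 to 78503395 counts, so that 1 count stood for 0.0153 to 0.0229 CPM (the count scaled to a common library total) after scaling by the trimmed mean of M values (TMM). All 7 pluripotency markers (POU5F1, NANOG, SOX2, LIN28A, DNMT3B, TDGF1 and SALL4) were detected, with a summed level of 3978 to 5394 CPM in general and 3858 to 4997 CPM in HHH libraries. NANOG was higher in HHH (log2 fold change 0.44) and SOX2 lower (-0.26), the latter at an adjusted p of 0.0773 when replicate numbers were used as a block, a fit in which TDGF1 passed as higher (adjusted p 0.0342). Markers of mesendoderm summed to at most 3.23 CPM, and markers of endoderm to at most 3.53 CPM in any library.

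The family was strongly unequal in level. Per kilobase of exon, FZD7 stood first in every library, at 63.7 ± 5.19 RPKM (CPM divided by the exon length in kilobases, SD, n = 5) in general and 59.1 ± 16.5 RPKM in HHH cells. It supplied 56.3 ± 1.75% of the summed Frizzled RPKM of general libraries and 59.9 ± 4.75% of that of HHH libraries. At the other end FZD10 reached only 0.107 ± 0.0596 RPKM in general and 0.168 ± 0.0641 RPKM in HHH cells.

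Between these ends the general population held an order of levels that was the same in its 5 libraries with the exon lengths used here. FZD5 followed FZD7 at 18.0 ± 5.50 RPKM, then FZD3 at 10.3 ± 1.94 and FZD2 at 8.06 ± 2.38 RPKM. FZD6 came next at 5.64 ± 0.955, FZD8 at 3.55 ± 0.339, FZD4 at 2.05 ± 0.470, FZD9 at 1.32 ± 0.151 and FZD1 at 0.438 ± 0.0543 RPKM. In all 5 general libraries each of these genes was above the next in that order.

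In HHH cells the middle of that order differed between the batches. FZD5 stood at 8.78 ± 0.839 RPKM, behind by mean FZD3 at 10.2 ± 1.09 and FZD2 at 8.92 ± 6.26 RPKM. FZD3 was above FZD2 in 3 of 5 HHH libraries, those of batch 2, and FZD2 was above FZD5 in 2 of 5, those of batch 1. In HHH libraries FZD2 was at 13.94 and 17.35 RPKM in batch 1 and at 4.29 to 4.55 RPKM in batch 2. Its place among these genes thus followed the batch. FZD8, at 1.77 ± 0.258 RPKM, stood below FZD4, at 2.07 ± 0.432 RPKM, in 3 of 5 HHH libraries, again those of batch 2. The exon lengths behind RPKM come from one annotation, and the lengths implied by the authors' own table were shorter for FZD2 (1.84 against 3.78 kb) and FZD1 (4.37 against 6.89 kb). With the deposited values the share of FZD2 in general libraries was 12% in place of 7.16%, above the 7.69% of FZD3. On those values, from which batch had been subtracted, FZD2 was above FZD3 in all 5 libraries of each population, and above FZD5 in all 5 HHH libraries and 1 general library. FZD4 was below FZD8 in all 5 HHH libraries. The order of these neighbours thus turns with the batch, the lengths and the table used.

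**Figure D1:**
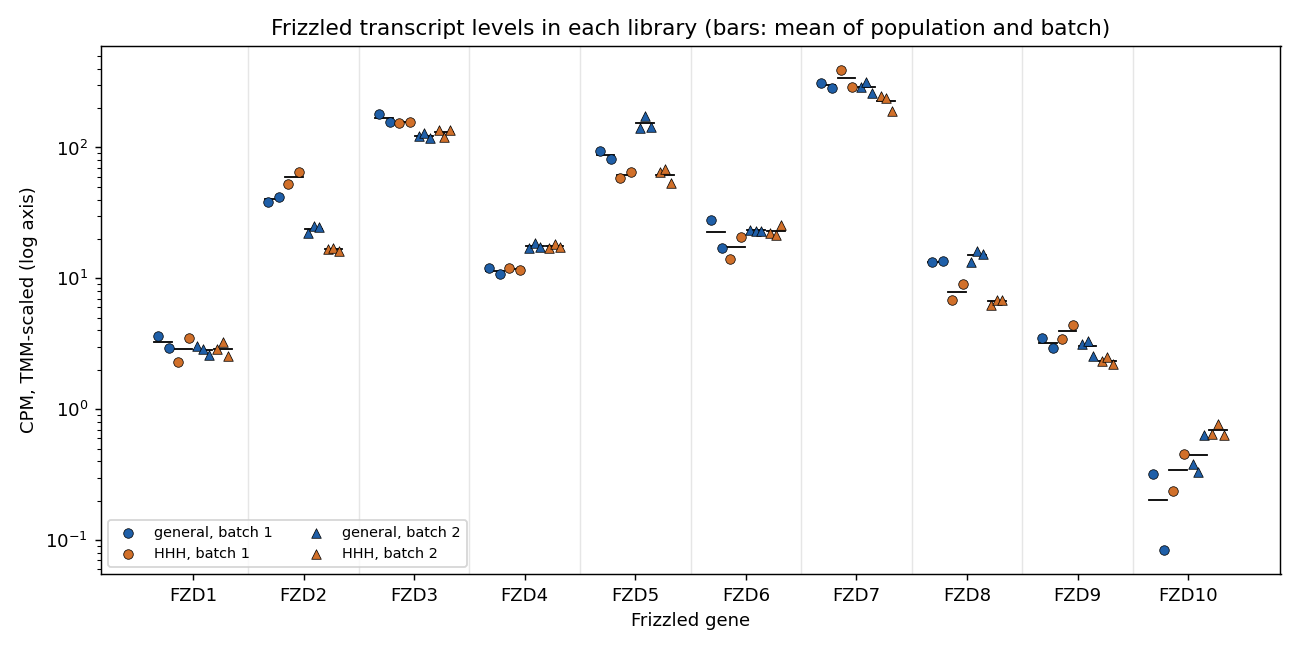
Level of each Frizzled gene in every library, in TMM-scaled CPM on a log axis, with circles for batch 1, triangles for batch 2, blue for general, orange for HHH and a short bar for the mean of each population and batch. FZD5 and FZD8 are the 2 genes whose HHH libraries all lie below the general libraries of their own batch, and FZD2 changes sides between batches.

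Of the 10 members, 2 fell in HHH against general at an adjusted p under 0.05 (edgeR quasi-likelihood test with batch as a term) and none rose. Among all tested genes the lower ones made up 66.6% of the calls, a share of 76.7% with scaling by library size only, 96.1% on the deposited log2 values and 55.3% after removal of a GC trend. The share was 50.9% with the GC trend removed and replicate numbers as a block, and 49.3% with batch 1 fitted alone. Both of the called members also exceeded a 1.5-fold change, which 2.34% of all tested genes did downwards and 0.637% upwards. At an unadjusted p under 0.05 the members lower in HHH were again FZD5 and FZD8, and 1 member, FZD10, was higher. The share of all tested genes at that unadjusted threshold is not given here. DESeq2 likewise called 2 members lower and 0 higher, where it called 1227 genes lower and 751 higher among the 23552 tested. The median log2 fold change of the family was -0.09, beside 0.02 over all tested genes.

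Complete separation gave the same pair of genes. FZD5 and FZD8 were the 2 members with every HHH library below every general library of its batch, a pattern found in 5.43% of tested genes. No member had every HHH library above every general library in both batches, which held for 3.94% of tested genes. In bulk RNA, fewer cells expressing a gene and less RNA per cell cannot be told apart.

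**Figure D2:**
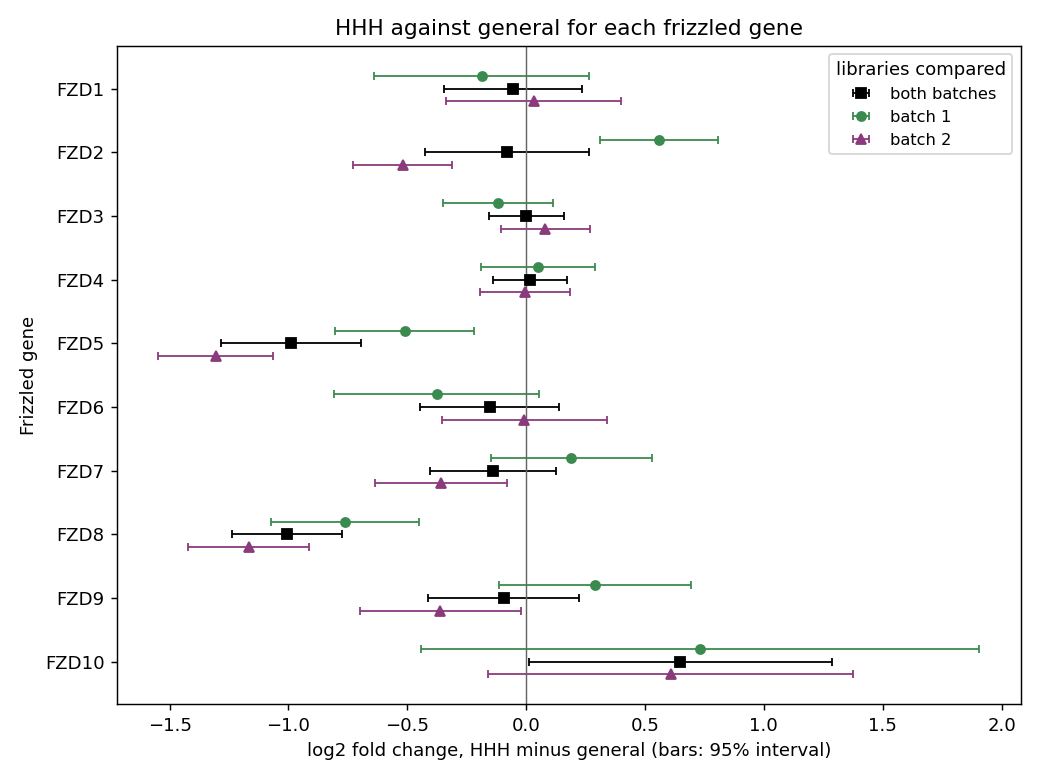
Log2 fold change of HHH over general for each Frizzled gene with its 95% interval, for both batches together (black squares), batch 1 (green circles) and batch 2 (purple triangles). The intervals of FZD5 and FZD8 lie below 0 in all 3 comparisons, those of FZD2 lie above 0 in batch 1 and below 0 in batch 2, and those of FZD1, FZD3, FZD4 and FZD6 include 0 throughout.

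FZD5 and FZD8 are close relatives that can both signal through beta-catenin, and both are known for roles in the developing eye and forebrain. FZD5 (ENSG00000163251) lies on the minus strand at chr2:207762598-207769906 of GRCh38, in 2 exon blocks. FZD8 (ENSG00000177283) is a gene of 1 exon on the minus strand at chr10:35638247-35642296. It shares 318 exonic bases, 7.85% of its exon length, with ENSG00000287528 on the opposite strand, which has no row in the count table, so that its counts may hold reads of that gene. Because these are the members that fell together, their promoter sequences are given here. The sequences are the 250 bases before each gene start in RefSeq (GRCh38.p14), at chr2:207769907-207770156 and chr10:35642297-35642546, both on the minus strand and written 5′ to 3′. Capitals mark matches to the SP/KLF motif GGGCGG on either strand, including overlapping matches.
FZD5: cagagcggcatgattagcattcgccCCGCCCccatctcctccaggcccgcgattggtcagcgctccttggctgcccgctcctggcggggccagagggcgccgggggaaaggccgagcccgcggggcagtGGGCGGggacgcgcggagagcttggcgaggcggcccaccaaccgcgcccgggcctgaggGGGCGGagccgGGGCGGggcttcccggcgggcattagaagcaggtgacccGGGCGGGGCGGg
FZD8: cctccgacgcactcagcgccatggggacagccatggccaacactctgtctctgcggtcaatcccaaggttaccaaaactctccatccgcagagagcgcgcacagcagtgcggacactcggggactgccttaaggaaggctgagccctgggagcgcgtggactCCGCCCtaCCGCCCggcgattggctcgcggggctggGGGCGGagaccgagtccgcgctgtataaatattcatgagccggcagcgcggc

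The FZD5 window held 6 matches to GGGCGG and the FZD8 window 3, and 42.6% of 35116 RefSeq promoter windows of the same length held at least 1. Their GC content was 76.8% and 65.2%, beside a median of 58% over all windows. Windows on chromosome 8 (FZD3 and FZD6) were not analysed here. Windows were also given for FZD1, FZD4 and FZD9, which did not pass the test, and these held 1, 6 and 2 matches. None of the 5 windows held the TCF/LEF letters CTTTGAT or CTTTGTT (6.6% of all windows), the OTX letters TAATCC (5.62%) or the E-box CACGTG (6.34%) on either strand. These matches are descriptions of the letters in the windows and separate neither FZD5 nor FZD8 from the members that did not pass.

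FZD5 was second to FZD7 in RPKM in the general population. In CPM its mean over the 5 general libraries was behind those of FZD7 and FZD3 (127 against 141.5 CPM for FZD3). By batch, the general mean of FZD5 was below that of FZD3 in batch 1 (87.5 against 168.7 CPM) and above it in batch 2 (153.4 against 123.3 CPM). In batch 1 its level was 93.3 and 81.6 CPM in general libraries and 58.1 and 64.6 CPM in HHH libraries. In batch 2 it was 140.8, 175.0 and 144.5 CPM in general libraries and 64.8, 68.1 and 53.4 CPM in HHH libraries. The populations did not overlap in either batch, and the HHH libraries of both batches lay in one narrow range while the general libraries of batch 2 stood above those of batch 1. Averaged over batches, FZD5 was 127 ± 38.7 CPM (SD, n = 5) in general and 61.8 ± 5.90 CPM in HHH cells. The log2 fold change was -0.99 (SE 0.14, 95% interval -1.28 to -0.70, adjusted p 0.000515).

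By batch, the FZD5 difference was -0.51 on the log2 scale in batch 1 (95% interval -0.81 to -0.22, adjusted p 0.0717) and -1.30 in batch 2 (-1.55 to -1.06, adjusted p 6.3e-06). In batch 1 the general mean was thus 1.43 times the HHH mean, and in batch 2 it was 2.47 times. The difference between batches, -0.79 (SE 0.18), had an adjusted p of 0.0559 in the edgeR interaction test and 0.00354 by DESeq2. FZD5 made up 15.9 ± 4.50% of the Frizzled RPKM of general libraries and 9.28 ± 1.91% of that of HHH libraries.

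FZD8 was a less abundant receptor with a smaller spread between libraries. Its level in batch 1 was 13.2 and 13.6 CPM in general libraries and 6.83 and 8.99 CPM in HHH libraries. In batch 2 it was 13.4, 16.3 and 15.3 CPM in general libraries and 6.32, 6.84 and 6.85 CPM in HHH libraries. All 5 HHH libraries were below all 5 general libraries, across batches as well as within them. The means were 14.4 ± 1.37 CPM (SD, n = 5) in general and 7.17 ± 1.04 CPM in HHH cells, a log2 fold change of -1.01 (SE 0.11, 95% interval -1.24 to -0.78, adjusted p 5.58e-05).

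FZD8 was lower in HHH cells in each batch taken within the edgeR model, by -0.76 on the log2 scale in batch 1 (adjusted p 0.0146) and -1.17 in batch 2 (adjusted p 2.95e-05). The difference between batches, -0.40 (SE 0.19), did not pass the interaction test (adjusted p 0.261), and it was 0.01 (adjusted p 0.986) with a GC trend removed. FZD8 was also the called member whose level did not differ detectably between batches (log2 -0.04, adjusted p 0.803). Its share of the Frizzled RPKM was 3.14 ± 0.302% in general and 1.86 ± 0.344% in HHH libraries. In batch 1 the FZD8 call depended on single libraries, with an adjusted p of 0.0896 without general replicate 1 and 0.119 without HHH replicate 2.

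Markers of other cell types moved with these 2 receptors in part. Of 10 neural markers, 5 could be tested and 3 were lower in HHH cells, namely LHX5 (log2 -5.57), HESX1 (-1.45) and SOX1 (-1.39), while PAX6 (-0.15) and DCX (0.20) did not pass. SOX1 had means of only 0.3885 CPM in general and 0.149 CPM in HHH, and its call held in 2 of 10 fits that left out 1 library. Over all tested genes 3.89% were lower in HHH cells. The summed neural level was 20.2 to 31.9 CPM in general and 12.9 to 16.7 CPM in HHH libraries, with no overlap in either batch. Most of the sum came from HESX1 (means of 11.98 CPM in general and 4.34 CPM in HHH), LHX5 (6.81 and 0.145 CPM) and DCX (6.54 and 7.34 CPM). Its difference thus largely repeats the HESX1 and LHX5 calls. Among the 5 untested markers LHX2 and NEUROG2 reached at most 7 and 3 counts in any library. SIX3 had means of 0.515 CPM in general and 0.0209 CPM in HHH, and RAX of 0.227 and 0.109 CPM. FEZF2 went the other way, its mean being 0.0231 CPM in general but 1.69 ± 2.38 CPM in HHH libraries, and it ran from 0 to 5.21 CPM over single libraries. None of the 10 was at 0 in all libraries.

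Of 5 fibroblast markers 2 were tested, of which COL1A1 was lower in HHH cells (log2 -0.94, with -0.33 in batch 1 and -1.34 in batch 2, interaction adjusted p 0.0315). The summed level was 115.4 to 138.1 CPM in general and 77.9 to 118.7 CPM in HHH libraries. Nearly all of it was COL1A2 (means of 104.9 CPM in general and 86.42 CPM in HHH) and COL1A1 (24.15 and 12.82 CPM). The untested COL3A1, DCN and LUM reached at most 8, 1 and 4 counts in any library, so that the sum describes these 2 collagen genes. The part of these neural and fibroblast markers in the FZD5 and FZD8 differences was not tested. Of 6 mesendoderm and 5 endoderm markers 2 and 1 were tested and did not pass, with smallest adjusted p-values of 0.0841 for TBX6 and 0.269 for AFP. With the replicate block TBX6 (adjusted p 0.0345) and COL1A2 (adjusted p 0.0281) also passed as lower. The summed mesendoderm level in batch 2 was 3.00 to 3.23 CPM in general and 2.01 to 2.33 CPM in HHH libraries, and the endoderm level 0.350 to 0.544 and 0.636 to 0.910 CPM, neither overlapping. In batch 1 both lists overlapped, and their part in the FZD5 and FZD8 differences was not tested.

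Among genes of at least 1 CPM, those whose batch-centred log2 CPM followed FZD8 most closely over the 10 libraries were SOX21 (Pearson r 0.996), FRAT2 (0.988) and LHX5 (0.988). For FZD5 they were CAVIN1 (0.992), ATP2B4 (0.992) and LFNG (0.991). Picking genes by r with a member that fell favours genes that also fell. All 6 were lower in HHH cells, with log2 fold changes from -0.52 (LFNG) to -5.57 (LHX5). These coefficients are descriptions over libraries that share the same difference between populations.

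In the subgroup of FZD1, FZD2 and FZD7, FZD2 (chr17:44557484-44561262, plus strand), which can signal through beta-catenin and through WNT5A, was the member whose difference between populations passed the test of a difference between batches. In batch 1 its level was 38.4 and 41.9 CPM in general libraries and 52.7 and 65.6 CPM in HHH libraries. In batch 2 it was 22.1, 25.2 and 24.8 CPM in general libraries and 16.9, 17.2 and 16.2 CPM in HHH libraries. Every HHH library was above the general libraries in batch 1 and below them in batch 2.

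The FZD2 difference was 0.56 on the log2 scale in batch 1 (95% interval 0.31 to 0.81, adjusted p 0.0222) and -0.52 in batch 2 (-0.73 to -0.31, adjusted p 0.00463). The difference between batches, -1.08 (SE 0.15, 95% interval -1.40 to -0.75), passed the edgeR interaction test with an adjusted p of 0.00671. By that test 0.722% of all tested genes had a change that was lower in batch 2, and 0.0552% one that was higher. FZD2 was the 1 member of 10 that passed it. With both batches together the log2 fold change was -0.08 (adjusted p 0.818), an average of opposite values. Without general batch 1 replicate 1 the interaction had an adjusted p of 0.0573, and the batch 1 difference had one of 0.22. The batch 1 difference also did not pass without HHH batch 1 replicate 3 (adjusted p 0.112) or with batch 1 fitted alone (adjusted p 0.149), and it passed in 4 of 7 alternatives.

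FZD7 (chr2:202033855-202038441, plus strand), the receptor associated with the undifferentiated state of human embryonic stem cells, did not differ detectably between populations. It stood at 259.5 to 318.7 CPM in the 5 general libraries and at 189.6 to 391.3 CPM in the 5 HHH libraries, ranges that overlap. The log2 fold change was -0.14 (95% interval -0.40 to 0.13, adjusted p 0.557). In batch 2 alone the 3 HHH libraries, at 246.4, 240.0 and 189.6 CPM, were below all 3 general libraries, at 287.5, 318.7 and 259.5 CPM, with a log2 fold change of -0.36 and an adjusted p of 0.0932 by edgeR and 0.0490 by DESeq2. In batch 1 the difference was 0.19 (adjusted p 0.589).

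FZD1 (chr7:91264433-91271326, plus strand), a receptor for beta-catenin signalling, was a minor transcript at 2.62 to 3.63 CPM in general and 2.31 to 3.48 CPM in HHH libraries. Its log2 fold change was -0.06 (95% interval -0.35 to 0.23, adjusted p 0.855).

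FZD3 and FZD6, both on chromosome 8, are the receptors best known for planar polarity and axon guidance. FZD3 was the third most abundant member per kilobase in the general population and did not pass the test. It stood at 117.8 to 181.5 CPM in general and 120.8 to 157.7 CPM in HHH libraries, and its log2 fold change was 0.00 (95% interval -0.16 to 0.16, adjusted p 0.995), with -0.12 in batch 1 and 0.08 in batch 2. FZD6 stood at 17 to 27.9 CPM in general and 14.0 to 25.7 CPM in HHH libraries, with a log2 fold change of -0.15 (-0.44 to 0.14, adjusted p 0.556). The populations overlapped for both genes. FZD6 shares 138 exonic bases with BAALC-AS1 on the opposite strand, whose reads cannot be told apart without strand.

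FZD4, FZD9 and FZD10 form the remaining subgroup. FZD4 (chr11:86945679-86955395, minus strand), which besides WNT binds norrin, stood at 10.9 to 18.7 CPM in general and 11.7 to 18.5 CPM in HHH libraries, and its log2 fold change was 0.02 (95% interval -0.14 to 0.17, adjusted p 0.925). It shares 1399 exonic bases with PRSS23 on the opposite strand, 18.9% of its exon length, so that its counts may hold reads of that gene. The norrin gene NDP itself was at 0.0813 CPM in general and 0.241 CPM in HHH cells (log2 1.60, adjusted p 0.0982), the smallest adjusted p among the 4 genes of norrin and its receptor partners.

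FZD9 (chr7:73433778-73436120, plus strand), whose gene lies in the region deleted in Williams syndrome, stood at 2.57 to 3.48 CPM in general and 2.21 to 4.44 CPM in HHH libraries. Its log2 fold change was -0.09 (95% interval -0.41 to 0.22, adjusted p 0.761), with 0.29 in batch 1 (adjusted p 0.471) and -0.36 in batch 2. In batch 2 the HHH libraries were below the general libraries, without a call, and the share of all tested genes so separated in batch 2 is not given here.

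FZD10 (chr12:130162459-130165740, plus strand) was represented by only 5 to 38 counts per general library and 11 to 45 counts per HHH library. Its level was 0.351 CPM in general and 0.552 CPM in HHH cells on average. The log2 fold change of 0.65 (95% interval 0.01 to 1.28) had an adjusted p of 0.233 and did not pass the test. In batch 2 the HHH libraries, at 0.652, 0.778 and 0.636 CPM, were above the general libraries, at 0.382, 0.333 and 0.633 CPM, without a call. The lowest of these HHH values came from 36 counts and the highest general value from 38 counts, so that they barely differ. In batch 1 the populations overlapped. The part of the low counts in the missing call was not tested.

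The summed level of the family was described by library. In batch 1 the summed RPKM was 118.6 and 106.6 in general libraries and 127.2 and 112.3 in HHH libraries, which overlap. In batch 2 it was 110.8, 124.5 and 105.7 in general libraries and 88.1, 86.6 and 74.9 in HHH libraries, which do not. In batch 2 the mean summed RPKM dropped by 30.5, of which FZD7 accounted for 13.8, FZD5 for 13.0, FZD8 for 2.05 and FZD2 for 1.92. In batch 1 it was 7.17 higher in HHH libraries, with FZD7 9.11 and FZD2 5.02 higher and FZD5 3.71 RPKM lower. These sums are descriptions and were not tested.

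**Figure D3:**
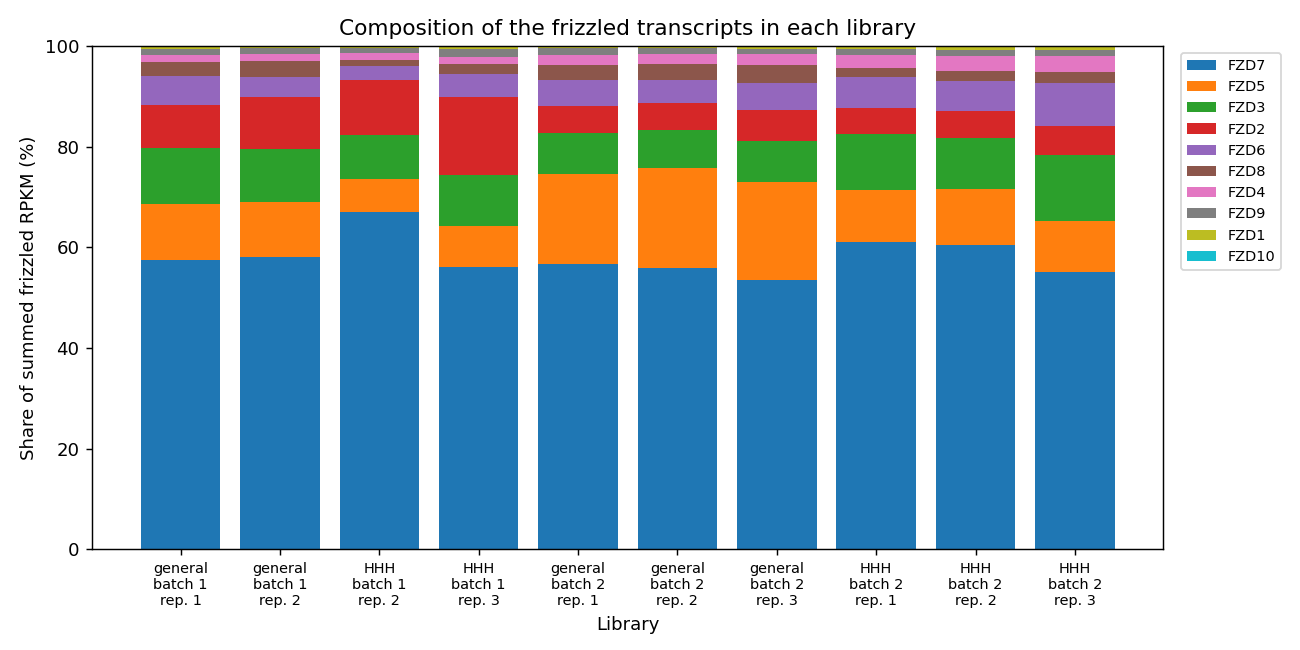
Composition of the summed Frizzled RPKM of each library, in percent, with general and HHH libraries of batch 1 followed by those of batch 2. FZD7 takes over 50% of every bar, and the FZD5 segment runs from 10.9 to 20.0% in general and from 6.49 to 11.2% in HHH libraries.

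The counts of called members within batches were read against the background of each batch. In batch 1, FZD8 was the 1 member called lower and FZD2 the 1 called higher, where 1.02% of tested genes were lower and 1.12% higher. DESeq2 also called FZD5 lower in batch 1 (log2 -0.52, adjusted p 0.0127). The shares above are those of edgeR, and the shares that DESeq2 called lower or higher within a batch are not given here. In batch 2, FZD2, FZD5 and FZD8 were called lower, where 5.65% of tested genes were lower. No member was called higher in batch 2 by edgeR, where 3.83% of tested genes were. No member was higher at an unadjusted p under 0.05 or by DESeq2 either, for which the share of all tested genes is not given here.

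More members differed between batches than between populations. Between batches 7 of 10 members differed at an adjusted p under 0.05, with FZD2, FZD3, FZD7 and FZD9 lower and FZD4, FZD5 and FZD10 higher in batch 2. Over all tested genes 23.9% were lower and 24% higher in batch 2, so that differences between batches were common throughout. Over both populations the log2 difference was -1.29 for FZD2 (SE 0.16, adjusted p 2.5e-05), 1.05 for FZD10 and 0.60 for FZD4. For FZD2 this averages unequal differences, from 40.1 CPM in batch 1 to 24.0 CPM in batch 2 in general cells and from 59.1 to 16.8 CPM in HHH cells. FZD5 was higher in batch 2 by 0.41 (adjusted p 0.0273) over both populations, while in HHH cells its mean was 61.3 CPM in batch 1 and 62.1 CPM in batch 2.

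The genes that make, carry, bind or transmit WNT signals around these receptors were described from lists chosen with earlier results known. Of 79 such genes outside the family 63 were tested, of which 13 were lower and 1 higher in HHH cells, and their median log2 fold change was -0.14. Over all tested genes 3.89% were lower and 1.94% higher at the same threshold, which is the background for the counts of each list below. Among ligands, 8 of 19 could be tested and 3 were lower. These were WNT4 (1.10 ± 0.314 CPM in general and 0.250 ± 0.102 CPM in HHH, log2 -2.12), WNT2B (-1.03) and WNT5A (3.71 ± 0.541 and 2.45 ± 0.336 CPM, -0.60). Under the replicate block WNT9A also passed (adjusted p 0.0482), and WNT5A passed in 7 of 10 fits that left out 1 library. The secretion genes PORCN (-0.15, adjusted p 0.427) and WLS (-0.33, adjusted p 0.353) did not pass.

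Of 6 co-receptors 1 was called. PTK7, a receptor-like protein of planar polarity signalling, was at 210.7 ± 11.4 CPM in general and 171.0 ± 14.7 CPM in HHH cells (log2 -0.30), and kept an adjusted p under 0.05 in 3 of 10 fits that left out 1 library. LRP5 (-0.07) and LRP6 (-0.10) did not pass. Of 9 genes of Frizzled turnover 7 were tested, and LGR4, a receptor for R-spondins, was the 1 called, at 171.2 ± 23.1 CPM in general and 111.4 ± 15.1 CPM in HHH cells (log2 -0.62, adjusted p 4.3e-05). The ubiquitin ligases that remove Frizzled proteins from the surface, ZNRF3 (0.07) and RNF43 (-0.15), did not pass.

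Soluble proteins that carry a Frizzled-like or WNT-binding domain were the one pathway list with calls in both directions. Of 6 genes 5 were tested, with 3 lower and 1 higher. FRZB fell from 6.19 ± 2.40 CPM in general to 1.53 ± 0.126 CPM in HHH cells (log2 -1.97), and SFRP1, the most abundant, from 1077 ± 79.4 to 730.5 ± 101.3 CPM (-0.57). SFRP2 rose from 137.6 ± 8.05 to 177.4 ± 16.4 CPM (0.37). SFRP5, named here after its values were seen, was lower by -0.56 (adjusted p 0.0472), did not pass with the replicate block (adjusted p 0.0527) and held in 3 of 10 fits that left out 1 library. Among DKK and KREMEN genes DKK2 was the 1 called of 5 tested (log2 -1.98), at under 1 CPM in both populations.

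**Figure D4:**
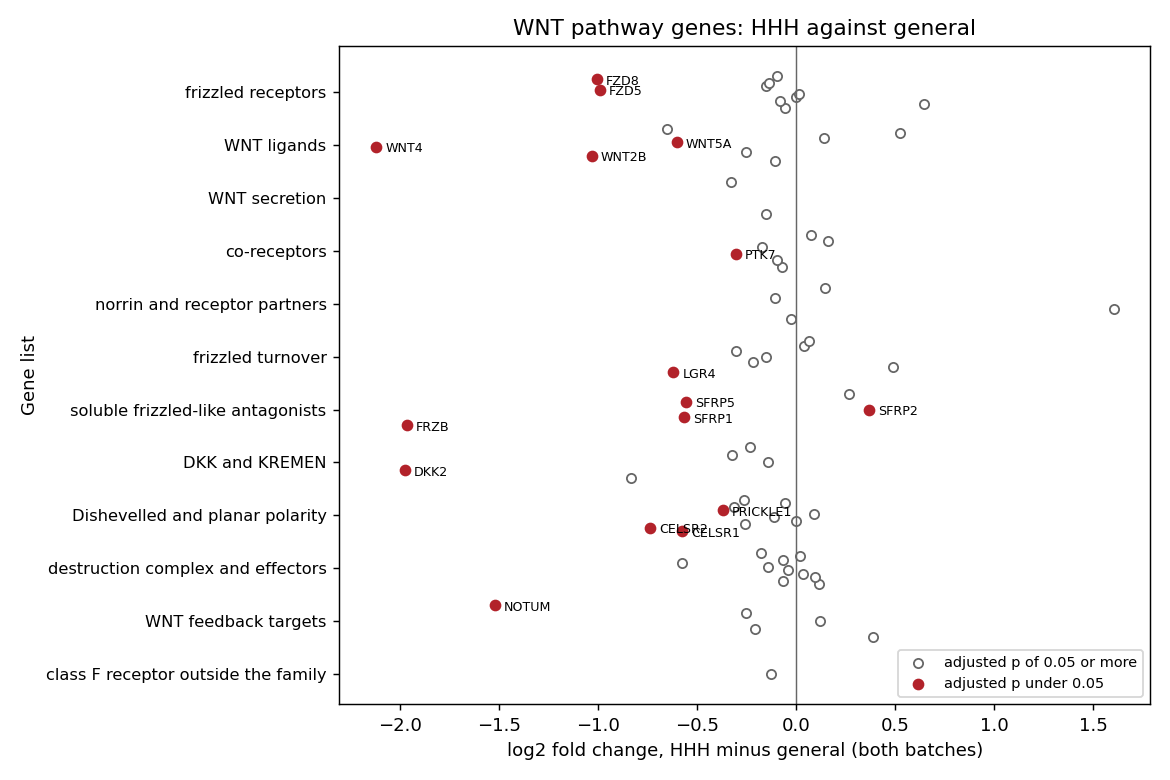
Log2 fold change of HHH over general in both batches for each tested gene of the Frizzled family and of 11 further WNT pathway lists, with filled red points and symbols for genes at an adjusted p under 0.05 and open points for the rest. The called genes lie to the left of 0 with the exception of SFRP2, and the list of the destruction complex and its effectors has no filled point.

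Downstream of the receptors, the 10 genes of the destruction complex and its effectors did not pass, the smallest adjusted p being 0.133 for LEF1. CTNNB1, which encodes beta-catenin, was at 952.9 CPM in general and 965.0 CPM in HHH cells (log2 0.04). The planar polarity list had 3 of 10 genes lower, namely CELSR2 (log2 -0.74), PRICKLE1 (-0.37) and CELSR1 (-0.58), and 5 lower with the replicate block. The CELSR2 change differed between batches (-0.18 in batch 1 and -1.09 in batch 2, interaction adjusted p 0.0248). The CELSR1 call held in 3 of 10 fits that left out 1 library. The 3 Dishevelled genes did not pass (-0.11 to 0.09). Among feedback targets of beta-catenin NOTUM was the 1 called of 5 tested (0.440 ± 0.170 CPM in general and 0.151 ± 0.0556 CPM in HHH, log2 -1.52), while AXIN2, a commonly read target, was at 20.2 and 17.5 CPM (-0.21, adjusted p 0.189). SMO, the Hedgehog-pathway relative of the Frizzled proteins, did not pass (log2 -0.13, adjusted p 0.324).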

How the data were processed

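RNA from 10 libraries of TruSeq RNA preparations was sequenced, and group, batch and replicate number were taken from the titles. The authors deposited whole counts per Ensembl gene without normalization, which were the values tested. They also deposited log2 RPKM values after TMM scaling, listed here as a score because they follow a further step: over the 27641 genes present in every library means did not differ between batches by more than 9.2e-14. Batch had therefore been subtracted, and these values served only as an alternative. The submitters' processing notes name CASAVA 1.8.2, R 3.2.2, limma 3.26.9 and GRCh37, while the aligner, counter, annotation and use of strand are not given in the sources used here.

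Identifiers were matched to GENCODE 44 (GRCh38), which gave symbols, coordinates and exon lengths for 88.5% of them. Coordinates are therefore in GRCh38 and not in the build of the notes. Genes were kept with filterByExpr at a minimum count of 10, and HHH was compared with general by the edgeR 4.0.16 quasi-likelihood F test in R 4.3.3 (TMM, batch as a term, two-sided, Benjamini-Hochberg adjustment over 23552 genes). Comparisons within a batch and the interaction came from a model with 1 mean per population and batch. The scripts were tested on simulated data. The common biological coefficient of variation was 0.128. Among well-counted genes 50 shared their counts with a second gene in every library, so that overlapping genes are uncertain. Intervals and counts cover no other error than the spread between these libraries.

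Same-numbered libraries of a batch deviated together (correlations 0.113 in batch 1 and 0.239, 0.143 and 0.113 in batch 2, all over 0.1), so that the numbers were taken to pair the libraries from the data, not from a statement in the labels. In batch 1 only replicate 2 has a partner, and with 2 libraries per population its correlation equals that of the remaining, unlike-numbered pair, so that the pairing rests on batch 2. The main, within-batch and interaction tests did not use the pairing, which entered only the fits with the replicate block.

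The members, lists and tests were chosen with earlier results of these data known. Named genes were all members, up to 3 genes of each list with the smallest adjusted p among those past 0.05 (or the smallest where none passed), and the 3 genes of at least 1 CPM with the largest Pearson r to each called member. SFRP5, WNT9A, CTNNB1, LRP5, LRP6, PORCN, RNF43, ZNRF3, AXIN2, the Dishevelled genes and untested or uncalled markers were named outside this rule, after their values were seen. The fits were repeated with DESeq2 1.42.0 and with limma 3.58.1 (voom, or deposited log2 values with and without centring), without the batch term, with the replicate block, under different scalings and filters, without mitochondrially encoded and small RNA genes, with a GC trend removed, in single batches, at an adjusted p under 0.01 and with each library left out.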

Additional observations from a re-analysis of the deposited data

Results flagged for a closer look

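FZD2 stood out because its difference between HHH and general cells ran in opposite directions in the batches. The change in batch 2 minus that in batch 1 was -1.08 on the log2 scale (edgeR interaction test, adjusted p 0.00671), with 0.56 in batch 1 and -0.52 in batch 2. Among 13 alternatives of that test FZD2 passed in 12, with values from -0.91 to -1.23, and the exception was the fit without general batch 1 replicate 1 (adjusted p 0.0573).

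FZD8 in HHH batch 1 replicate 3 stood apart from the other 4 HHH libraries. It was at 8.99 CPM where they lay between 6.32 and 6.85 CPM, a gap of 0.799 of the whole range of the population, past the 95% critical value of Dixon's test. That library was still below every general library. Among 20 groups of 5 libraries examined (10 members in each population) this was the 1 so marked, and chance marks about 1 in 20.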

How the results depend on the processing

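FZD5 and FZD8 stayed lower in HHH cells in all 26 alternative fits and passed in 25, the exception being batch 1 fitted alone, where 0 members were called and the log2 fold changes were -0.52 for FZD5 (adjusted p 0.131) and -0.77 for FZD8 (adjusted p 0.122). With the replicate block they were -1.11 (adjusted p 0.00102) and -1.12 (adjusted p 7.56e-05), 1636 genes were called in place of 1373, and no member's call changed. In that fit general batch 1 replicate 1 and HHH batch 1 replicate 3 have no same-numbered partner and add nothing to the estimated difference. It therefore leans more on batch 2 than the main fit does. Leaving out 1 library at a time kept 2 members called, with FZD5 from -0.89 to -1.10 and FZD8 from -0.95 to -1.11. FZD2 passed (-0.53) with batch 2 fitted alone.

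Counts over all genes moved further. The 1373 genes called became 168 with no batch term, 2423 with no filter, 898 on the deposited log2 values after centring, 2528 with the GC trend removed and the replicate block, 136 in batch 1 alone, 3166 in batch 2 alone and 616 at an adjusted p under 0.01. The 701 of them over 1.5-fold became 151, 1114, 136, 1178 and 440 with no batch term, no filter, batch 1 alone, batch 2 alone and the lower threshold. Leaving out 1 library gave 808 to 2347 and 523 to 963. Within batch 1 the 504 genes called became 914 by DESeq2 and 136 in batch 1 alone, with 0 members in place of 2, and leaving out 1 library gave 119 to 788 genes and 0 to 2 members, the lone library left being assumed to vary like the others. Within batch 2 leaving out 1 library gave 785 to 1727 genes in place of 2231. The 183 interaction calls became 828 by DESeq2, with 2 members (FZD2 and FZD5), and 16 with the GC trend removed, and leaving out 1 library gave 21 to 222 genes and 0 to 1 members. The cause of these shifts was not tested. On the deposited log2 values the median over all tested genes was -0.12, in place of 0.02, which is the shift against which their fold changes stand.

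FZD10 had few counts, whose part in its missing call was not tested, and batch 1 had only 2 libraries per population. Within-batch comparisons were not fitted with the replicate block. Shares of FZD1 and FZD2 rest on the exon lengths used. On the deposited values FZD1 took 0.517% in general and 0.583% in HHH, FZD2 12% and 13.3%, and FZD6 and FZD9 in general 4.10% and 0.996%.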
